A study of Mus musculus with 7 samples.

Results

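A set of 10 genes of glutathione metabolism was followed here, out of 16156 genes measured in CD8 T cells with and without ACLY. They are the gamma-glutamyl transferases Ggt5 and Ggt7, the synthesis genes Gclc, Gclm and Gss, the reductase Gsr, the peroxidases Gpx1 and Gpx4, and the transferases Gstp1 and Gsto1. Each was found once in the deposited table by its symbol. The set was chosen by starting from Ggt5, which ranked at position 6 of 16156 by its p-value between ACLY KO and WT cells, and by adding genes of the same pathway. The difference of Ggt5 between the genotypes is therefore given as a description and supports nothing else.

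ACLY, ATP citrate lyase, makes acetyl-CoA in the cytosol from citrate. The 3 ACLY KO libraries and 4 WT libraries hold total RNA of mouse CD8 T cells of the OT-I transgenic line, whose receptor recognises an ovalbumin peptide, on the C57Bl/6 strain. Cells of both genotypes carried a congenic mark, were given to C57Bl/6 hosts 1 day before the hosts were infected with Listeria that expresses ovalbumin, and were recovered at day 6 of infection. The hosts kept their own immune cells. The sources used here give neither what drives the deletion, nor the ages of the mice, nor how the transferred cells were purified, nor whether each library is from its own mouse, so the p-values measure only the spread between these libraries.

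Glutathione is the main small thiol of the cell. The ligase built from the Gclc and Gclm products joins glutamate to cysteine, Gss adds glycine, peroxidases and transferases use the product against peroxides and reactive molecules, and Gsr returns its oxidised form to the reduced one. Gamma-glutamyl transferases sit on the outer membrane face and start the breakdown of glutathione and its conjugates. In mice, T cells that lack Gclc can be activated but fail to sustain growth.

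Total counts were 37473484 to 39692359 in the KO libraries and 45288353 to 75586011 in the WT libraries. Levels are given in CPM, counts relative to the scaled size of each library. Acly itself had 262, 62.0 and 209 CPM in KO replicates 1 to 3, against 276 to 414 CPM in WT; every KO library lay below every WT library (log2 -1.003 ± 0.443, SE; edgeR adjusted p = 0.278). Summed CPM of marker genes showed that the libraries differ in more than genotype. The B cell sum, led by Cd74 and Ighm, was at 1398 to 20120 CPM in KO and 265 to 693 CPM in WT. Of its markers 9 of 10 were higher in every KO library than in any WT library, as were 9.46% of all genes. The same share of all genes applies to the counts in brackets for the other marker lists. The macrophage sum, led by Vcam1 and Csf1r, was at 62.5 to 1303 CPM in KO and 19.5 to 36.3 CPM in WT (8 of 10 markers), and the red cell sum, led by Hba-a1 and Hbb-bt, at 95.9 to 19570 CPM in KO and 0.499 to 181 CPM in WT (0 of 5). The sum of 8 CD8 T cell markers, led by Lck and Cd8b1, was at 3311 CPM in KO replicate 1. It was at 7756 to 7886 CPM in the other KO libraries, against 7091 to 9688 CPM in WT. Among these markers Cd3d, Cd3e, Cd3g and Thy1 were lower in every KO library than in any WT library (all genes 9.03%). The KO and WT values of the other CD8 T cell markers overlapped. The other sums were 126 to 1430 CPM in KO and 122 to 831 CPM in WT for monocytes and neutrophils (Ccr2 and Lyz2 leading; 5 of 7 markers), 39.6 to 269.5 CPM in KO and 165 to 412 CPM in WT for dendritic cells (Itgax and Xcr1; 1 of 4), 119.6 to 216 CPM in KO and 63.8 to 82.8 CPM in WT for stromal and endothelial cells (Pecam1 and Cxcl13; 4 of 5), and 27.5 to 231 CPM in KO and 60.6 to 75.3 CPM in WT for CD4 T cells (Ctla4 and Zbtb7b; 1 of 5). Itgax made up most of the dendritic cell sum in every library, and Ccr2 most of the monocyte and neutrophil sum in every WT library. Their log2 differences were -1.28 and -1.53, while every other measured gene of both lists was above 0. Pecam1 made up most of the stromal and endothelial sum in every library, at 117 to 211 CPM in KO and 63.8 to 82.5 CPM in WT. No other gene of that list passed 3.23 CPM in any library, so the sum is mainly the level of Pecam1. WT replicate 4 stood apart with a cell cycle sum, led by Mcm2 and Top2a, of 2809 CPM. The cell cycle sum was 284 to 715 CPM in KO and 340.4 to 357 CPM in the other WT libraries. Outside the red cell list, the markers at 0 in some WT library were Ms4a1, Fcer2a, Blnk and Pax5 of B cells, Mrc1 and Cd5l of macrophages, S100a8, S100a9 and Csf3r of monocytes and neutrophils, Batf3 of dendritic cells, Cxcl13, Dcn, Col1a2 and Pdgfrb of stromal cells, and Cd4. Dcn and Pdgfrb were at 0 in every WT library, and the other B cell markers were detected in every library.

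Ggt5 was low in WT cells and higher in every KO library. It encodes a transferase that converts leukotriene C4 to leukotriene D4 and lies on the plus strand of chromosome 10 (75589340 to 75617200 in mm10). Its level was 7.67, 15.7 and 9.77 CPM in KO replicates 1 to 3, against 1.45, 1.41, 1.21 and 1.66 CPM in WT replicates 1 to 4. The groups did not overlap, and the lowest KO library lay well above the highest WT library. These values rest on 287, 673 and 382 reads in KO and on 105, 63, 63 and 98 reads in WT. The KO mean was 11.0 ± 4.15 CPM (SD, n = 3) and the WT mean 1.43 ± 0.185 CPM (SD, n = 4), a ratio of 7.70 and a log2 difference of 2.94 ± 0.35 (SE). KO replicate 2 was the highest KO library for Ggt5 and had the smallest macrophage sum of the KO libraries, while KO replicate 1, with the largest B cell and red cell sums, was the lowest. The order of Ggt5 in the KO libraries was that of the CD8 T cell sum (3311, 7886 and 7756 CPM in KO replicates 1 to 3, against 7091 to 9688 CPM in WT). The part of any of these cells in the Ggt5 level was not tested. In a bulk library more cells with a transcript and more transcript in each cell cannot be told apart, nor can fewer cells and less transcript in each. No run of 50 bases in the annotated Ggt5 transcripts occurs in the transcripts of another gene.

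Ggt7, a family member whose enzymatic activity is less settled, lies on the minus strand of chromosome 2 (155490379 to 155518237). It had 2.46, 3.84 and 8.24 CPM in KO replicates 1 to 3, against 5.03, 5.81, 4.86 and 9.36 CPM in WT replicates 1 to 4. The groups overlapped: KO replicate 3 was above 3 of the WT libraries and WT replicate 4 was the highest of all. The log2 difference was -0.37 ± 0.48 (SE), with an edgeR adjusted p of 0.737, and it was -0.99 without KO replicate 3, -0.05 without KO replicate 1 and -0.11 without WT replicate 4. Without both of these libraries the difference turned to 0.23. Per kilobase of exon, the Ggt5 level divided by that of Ggt7 was 1.72, 2.25 and 0.654 in KO replicates 1 to 3, against 0.0979 to 0.159 in WT. Of the Ggt7 exons 6.0% overlap those of Acss2 on the other strand, so its count may hold reads of Acss2.

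Ggt1, the best known enzyme of the family, ends 3139 bases upstream of Ggt5 on the same strand. Ggt1 was picked with its values in view and had 8.55, 55.2 and 39.0 CPM in KO replicates 1 to 3, against 11.9, 8.50, 9.98 and 106 CPM in WT replicates 1 to 4. In WT it was high in the 1 library with the large cell cycle sum, and in KO it was high in the 2 libraries other than KO replicate 1. The log2 difference was 0.01 ± 1.04 (SE) with all libraries. Without KO replicate 1 and WT replicate 4 together it was 2.23 ± 0.22 (SE; edgeR adjusted p = 0.0141), so the call rests on leaving out these libraries.

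The genes whose profile lay nearest to that of Ggt5 were Cyth3, Patj, Mob3b, Tmie and Adamtsl4, out of 10227 genes with a symbol and a mean log2 CPM of at least 1. Nearness was the root mean square difference of log2 CPM, centred on the mean of each gene, over the 7 libraries. It was 0.262 for Cyth3 and 0.368 to 0.408 for the other 4. Cyth3 had 36.7, 57.9 and 44.7 CPM in KO replicates 1 to 3, against 6.48 to 9.87 CPM in WT. Adamtsl4, the lowest of the 5, was at 4.12, 8.73 and 4.55 CPM in KO and 1.17 to 1.44 CPM in WT. The mean CPM was 63.7 in KO and 11.3 in WT for Patj, 11.8 in KO and 2.30 in WT for Mob3b, and 22.01 in KO and 2.62 in WT for Tmie, of whose exons 7.9% overlap Als2cl. In each of the 5 every KO library lay above every WT library, which the choice by likeness to Ggt5 makes likely.

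**Figure D1:**
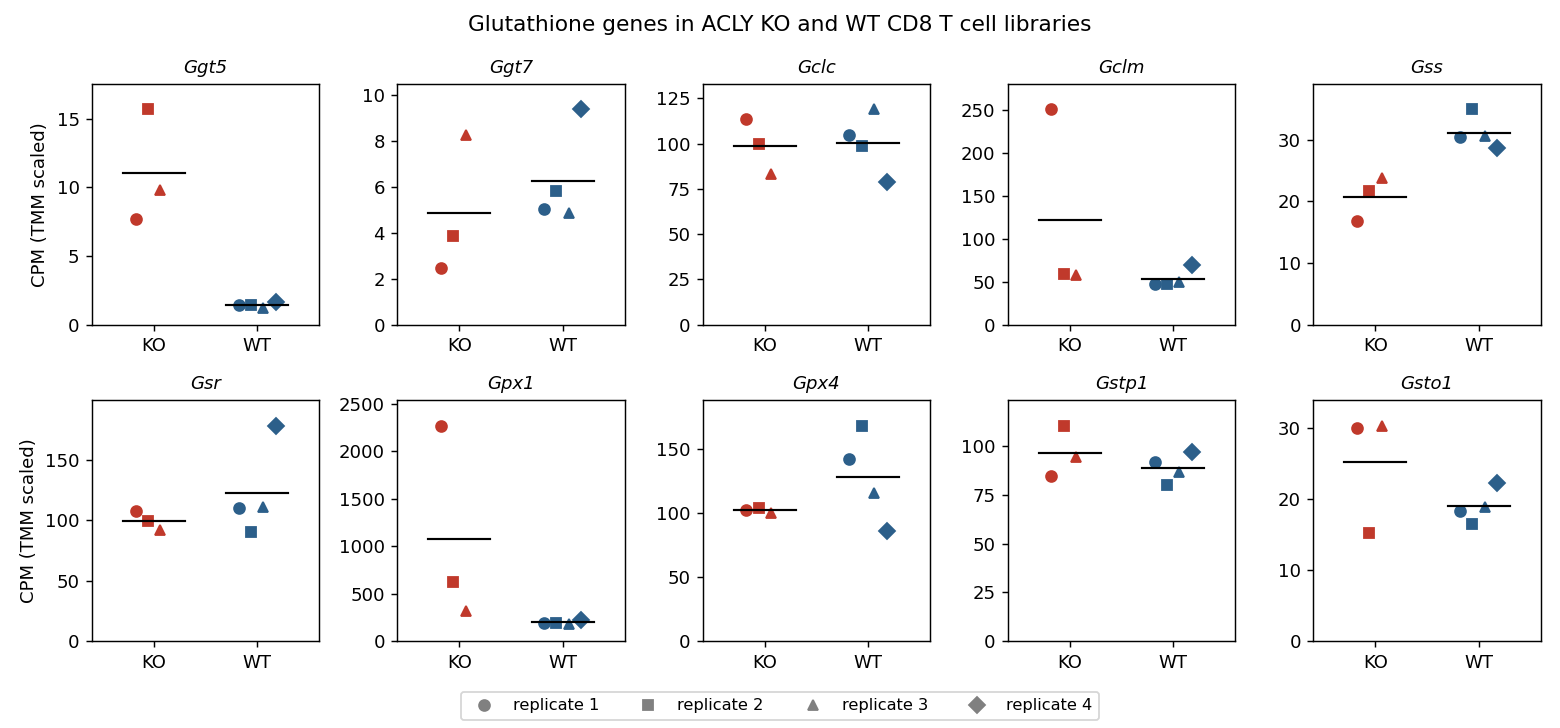
Level of each of the 10 genes in CPM (y axis, linear from 0) in the 3 KO libraries and the 4 WT libraries. Symbols mark the replicate and bars the group mean. Ggt5 and Gpx1 lie above WT in every KO library and Gss below it, while the Gclm mean in KO is set by KO replicate 1 at 250.3 CPM.

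The synthesis genes differed in their patterns. Gclc, the catalytic subunit of the glutamate-cysteine ligase (chromosome 9, 77754535 to 77794485), had 114, 99.6 and 83.5 CPM in KO replicates 1 to 3, against 105, 98.8, 119 and 78.8 CPM in WT replicates 1 to 4. The groups overlapped fully, with a log2 difference of -0.02 ± 0.17 (SE) and an edgeR adjusted p of 0.964. Its sign turned with scaling and with single libraries, so no direction can be given for Gclc.

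Gclm, the modifier subunit that raises the activity of the ligase (chromosome 3, 122245557 to 122270732), had 250.3, 58.6 and 57.5 CPM in KO replicates 1 to 3, against 47.1, 47.7, 49.9 and 69.9 CPM in WT replicates 1 to 4. KO replicate 1 was far above all others, and the other KO libraries lay between WT replicates 1 to 3 and WT replicate 4. The KO mean was 122 ± 111 CPM (SD, n = 3) and the WT mean 53.6 ± 10.9 CPM (SD, n = 4). edgeR did not call the log2 difference of 1.19 ± 0.52 (SE; adjusted p = 0.275), and it was 0.11 once KO replicate 1 was left out. KO replicate 1 is the library with the B cell sum of 20120 CPM and the red cell sum of 19570 CPM, and their part in the Gclm level was not tested. Of the Gclm exon sequence 4.58% of 50-base runs recur in other genes, 3.24% in Ppia alone, and 4.7% of its exons overlap Gm17494 on the other strand.

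Per kilobase of exon, Gclm stood at 1.32 times Gclc in KO replicate 1 and at 0.352 and 0.413 times in KO replicates 2 and 3, against 0.270, 0.289, 0.252 and 0.530 times in WT replicates 1 to 4. KO replicate 1 was the single library with more modifier than catalytic subunit transcript on this scale.

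Gss, the enzyme of the second and last step (minus strand of chromosome 2, 155563181 to 155592810), had 16.8, 21.7 and 23.8 CPM in KO replicates 1 to 3, against 30.4, 34.9, 30.6 and 28.7 CPM in WT replicates 1 to 4. Every KO library lay below every WT library. The KO mean was 20.8 ± 3.63 CPM (SD, n = 3) and the WT mean 31.1 ± 2.67 CPM (SD, n = 4), with -0.58 ± 0.19 (SE) as the log2 difference, which edgeR did not call (adjusted p = 0.158). Leaving out any 1 library kept it between -0.69 and -0.45. Of the Gss exons 6.7% overlap Acss2 on the other strand, and 10.3% of its 50-base runs recur in Acss2 or in antisense transcripts.

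Gsr, the reductase that recycles oxidised glutathione with NADPH (chromosome 8, 33652523 to 33698163), had 108, 99.4 and 92.0 CPM in KO replicates 1 to 3, against 110, 90.4, 110 and 178 CPM in WT replicates 1 to 4. The KO libraries fell within the WT range, whose upper end was WT replicate 4 alone. The log2 difference was -0.29 ± 0.23 (SE; edgeR adjusted p = 0.549), and it was -0.05 without WT replicate 4.

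The promoters of 3 genes are printed, those of Gclm and Gpx1, which had the largest differences after Ggt5, and that of Gstp1. The groups of Gstp1 overlapped, as did those of Gclm and of other genes with a window. Gclm and Gstp1 were the only genes with a match of the motif described below. The windows run from 250 bases before to 50 bases after the RefSeq gene start on GRCm38.p6, 5′ to 3′ on the strand of the gene. For Gpx1 and Gstp1 this start lies inside the gene coordinates given for them here, which begin at 108338903 for Gpx1 and, on the minus strand, at 4037985 for Gstp1. Their windows thus hold less sequence upstream of those coordinates, and positions are relative to the RefSeq start. Of the 10 genes 7 matched an entry, in 10 windows; Ggt5, Gclc and Gsr are named only. A pair of forms of the antioxidant response element, the motif bound by NRF2 with small MAF proteins, was searched on both strands: TGACNNNGC and TGANTCAGC, which both match where the N of the second is a C. Of 32851 promoter windows of this length, 12.4% held the first and 1.19% the second. Capitals mark a match. Gclm holds the first on the reverse strand from position -134 relative to the gene start, Gstp1 holds the second on its own strand from position -74, and the windows of the other 5 genes, Gpx1 among them, hold neither. A match is only a match of letters.
Gclm, chr3:122245307-122245606, plus strand: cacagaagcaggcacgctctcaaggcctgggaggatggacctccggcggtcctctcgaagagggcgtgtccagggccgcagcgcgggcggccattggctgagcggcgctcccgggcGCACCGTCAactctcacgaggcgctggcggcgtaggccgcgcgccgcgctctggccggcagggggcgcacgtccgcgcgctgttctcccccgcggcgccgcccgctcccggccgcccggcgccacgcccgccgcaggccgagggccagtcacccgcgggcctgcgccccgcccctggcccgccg
Gstp1, chr19:4037863-4038162, minus strand: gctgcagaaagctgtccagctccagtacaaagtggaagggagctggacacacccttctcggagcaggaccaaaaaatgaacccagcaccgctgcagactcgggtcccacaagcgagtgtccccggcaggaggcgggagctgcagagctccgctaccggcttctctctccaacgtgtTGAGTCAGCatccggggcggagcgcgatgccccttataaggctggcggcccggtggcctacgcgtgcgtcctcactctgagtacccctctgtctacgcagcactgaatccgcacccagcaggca
Gpx1, chr9:108338830-108339129, plus strand: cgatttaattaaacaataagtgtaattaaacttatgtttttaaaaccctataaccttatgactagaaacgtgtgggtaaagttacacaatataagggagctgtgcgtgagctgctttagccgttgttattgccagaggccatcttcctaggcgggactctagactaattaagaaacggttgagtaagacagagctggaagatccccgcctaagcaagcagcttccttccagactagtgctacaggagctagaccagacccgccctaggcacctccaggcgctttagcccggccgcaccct

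Of the peroxidases, Gpx1 was higher in every KO library and Gpx4 was not. Gpx1, the abundant selenium-containing peroxidase of the cytosol that reduces hydrogen peroxide and is also well known from red cells, lies on the plus strand of chromosome 9 (108338903 to 108340343). It had 2267, 629 and 321 CPM in KO replicates 1 to 3, against 189, 197, 183 and 224 CPM in WT replicates 1 to 4. The groups did not overlap, but the KO libraries differed among themselves more than the nearest KO and WT libraries did. The KO mean was 1072 ± 1046 CPM (SD, n = 3) and the WT mean 198 ± 18.3 CPM (SD, n = 4), with 2.44 ± 0.59 (SE) as the log2 difference, which edgeR did not call (adjusted p = 0.0973). It was 1.26 without KO replicate 1 (edgeR adjusted p = 0.0644) and 2.87 without KO replicate 3 (edgeR adjusted p = 0.0473).

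The order of the KO libraries for Gpx1 was that of their red cell sums, which were 19570, 2782 and 95.9 CPM in KO replicates 1 to 3, against 3.35, 181, 0.499 and 17.8 CPM in WT replicates 1 to 4. This was also the order of their B cell, stromal and endothelial, and cell cycle sums, so it is not particular to red cells. In KO replicate 3 the red cell sum was below that of WT replicate 2, and Gpx1 was at 321 CPM there against 197 CPM in WT replicate 2. The part of red cells, of B cells (20120, 1501 and 1398 CPM in KO replicates 1 to 3, against 265 to 693 CPM in WT) and of macrophages (633, 62.5 and 1303 CPM in KO replicates 1 to 3, against 19.5 to 36.3 CPM in WT) in the Gpx1 level was not tested beyond these values.

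**Figure D2:**
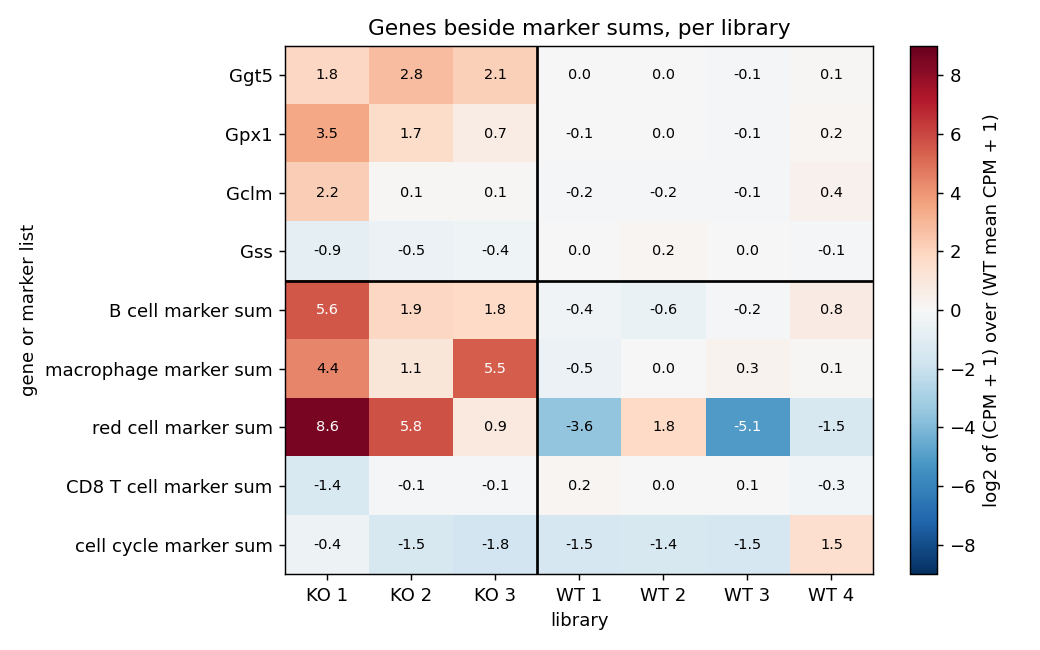
A set of 4 genes (top) and 5 marker sums (bottom) in each library (columns, KO left of WT), as log2 of CPM + 1 over the WT mean CPM + 1, which is 0 at the WT mean. Gpx1 and Gclm are highest in KO replicate 1, where the B cell and red cell sums are highest too, whereas Ggt5 is highest in KO replicate 2.

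Gpx4, which reduces lipid peroxides and guards cells against ferroptosis (chromosome 10, 80047166 to 80056439), had 103, 104 and 99.7 CPM in KO replicates 1 to 3, against 142, 168, 116 and 86.1 CPM in WT replicates 1 to 4. The KO libraries lay close together and below WT replicates 1 to 3 but above WT replicate 4. The log2 difference was -0.32 ± 0.22 (SE), with an edgeR adjusted p of 0.482. It was -0.47 without WT replicate 4 and -0.16 without WT replicate 2. The pseudogene Gpx4-ps2 shares 34.7% of the 50-base runs of Gpx4, so reads may be split between them. Per kilobase of exon, Gpx1 stood at 26.4, 7.22 and 3.85 times Gpx4 in KO replicates 1 to 3, against 1.59, 1.40, 1.89 and 3.12 times in WT replicates 1 to 4.

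For both transferases the KO and WT values overlapped. Gstp1, the pi class enzyme that conjugates glutathione to electrophiles (minus strand of chromosome 19, 4035407 to 4037985), had 84.5, 110.2 and 94.3 CPM in KO replicates 1 to 3, against 91.7, 79.8, 86.5 and 97.1 CPM in WT replicates 1 to 4. The ranges overlapped (log2 0.12 ± 0.13, SE; edgeR adjusted p = 0.698), and the difference was between 0.01 without KO replicate 2 and 0.20 without KO replicate 1. Its copy Gstp2, not analysed here, shares 33.7% of the 50-base runs of Gstp1, and the pseudogene Gstp-ps 20.3%. Another neighbour, Gstp3, picked with its values in view, had 17.3, 29.4 and 41.5 CPM in KO and 25.3, 27.4, 24.5 and 41.8 CPM in WT.

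Gsto1, the omega class enzyme that reduces dehydroascorbate and protein mixed disulfides (plus strand of chromosome 19, 47854970 to 47864790), had 29.9, 15.2 and 30.3 CPM in KO replicates 1 to 3, against 18.3, 16.5, 18.8 and 22.3 CPM in WT replicates 1 to 4. KO replicates 1 and 3 lay above every WT library and KO replicate 2 below every one. The log2 difference was 0.41 ± 0.28 (SE; edgeR adjusted p = 0.481), 0.66 without KO replicate 2, 0.26 without KO replicate 1 and 0.25 without KO replicate 3.

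**Figure D3:**
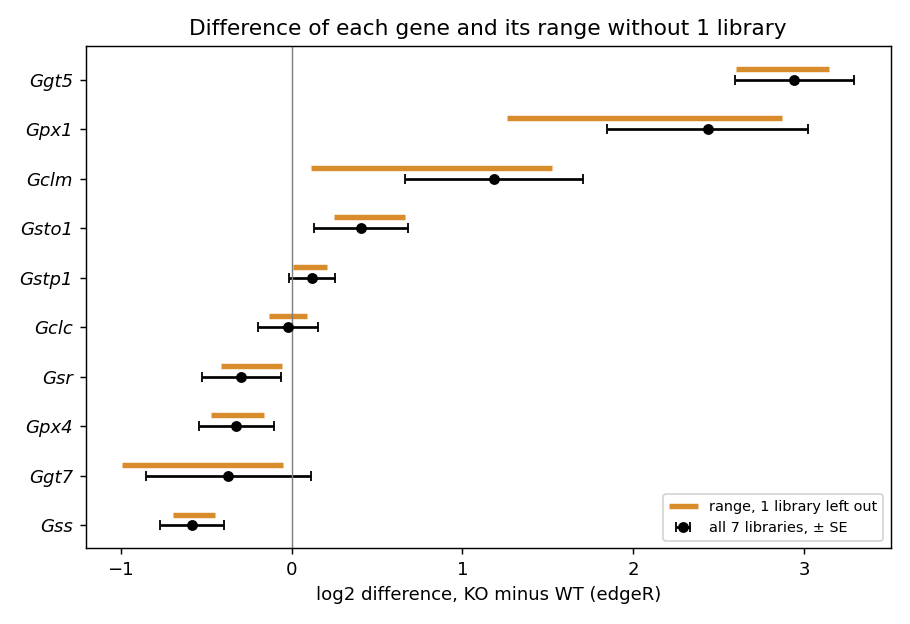
Log2 difference of KO minus WT for the 10 genes from edgeR with all 7 libraries (points, ± SE), and the range of that difference when 1 library is left out (orange bars). The Gclm bar reaches down to 0.11 and the Gpx1 bar to 1.26, both without KO replicate 1, while the Ggt5 bar runs from 2.60 to 3.15.

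Over the 10 genes, 5 had a log2 difference above 0 and 5 below, with a median of 0.05; over all genes the median was -3.62e-05. Every KO library lay above every WT library for 2 genes, Gpx1 and the starting gene Ggt5, as for 9.46% of all genes, and below for 1, Gss, as for 9.03%. Among the 9 genes other than Ggt5, edgeR put Gpx1 higher and Gss lower at an unadjusted p below 0.05, as it put 11.0% and 7.89% of all genes, and after adjustment it called 0 of them and 0% of all genes. The other tools called more genes throughout. DESeq2 called Gpx1 higher (adjusted p = 0.000215; 6.54% of all genes) and Gss lower (adjusted p = 0.0489; 3.29%). limma voom called Gpx1 higher (adjusted p = 0.0261; 5.32%) and none of the 10 lower (1.68%). The bias-adjusted fit of edgeR called neither Gpx1 (adjusted p = 0.0595; 3.08% higher) nor Gss (adjusted p = 0.125; 0.477% lower). Without KO replicate 1 and WT replicate 4 together, edgeR called Gpx1 higher with a log2 difference of 1.34 (adjusted p = 0.0396; 5.43%) and not Gss (adjusted p = 0.109; 4.20% lower).

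Levels of different genes were compared per kilobase of merged exons. In KO the means ran in the order Gpx1 (744 CPM per kb), Gstp1 (62.2), Gpx4 (59.3), Gsr (36.2), Gclc (26.3), Gclm (19.4), Gsto1 (12.4), Gss (3.51), Ggt5 (1.86) and Ggt7 (1.48 CPM per kb). Ranges over the KO libraries overlapped between Gstp1 and Gpx4, Gsr and Gclm, Gclc and Gclm, Gclm and Gsto1, and Ggt5 and Ggt7, and between no other pair. In WT the order was Gpx1 (138 CPM per kb), Gpx4 (74.2), Gstp1 (57.3), Gsr (44.4), Gclc (26.6), Gsto1 (9.39), Gclm (8.53), Gss (5.27), Ggt7 (1.92) and Ggt5 (0.242 CPM per kb). Ranges over the WT libraries overlapped between Gpx4 and Gstp1, Gpx4 and Gsr, Gstp1 and Gsr, and Gsto1 and Gclm, and between no other pair. Gss, the last synthesis enzyme, stood below both ligase subunits in every library, and Gclc was 5.50 to 10.7 times Gss in KO and 4.32 to 6.11 times in WT.

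**Figure D4:**
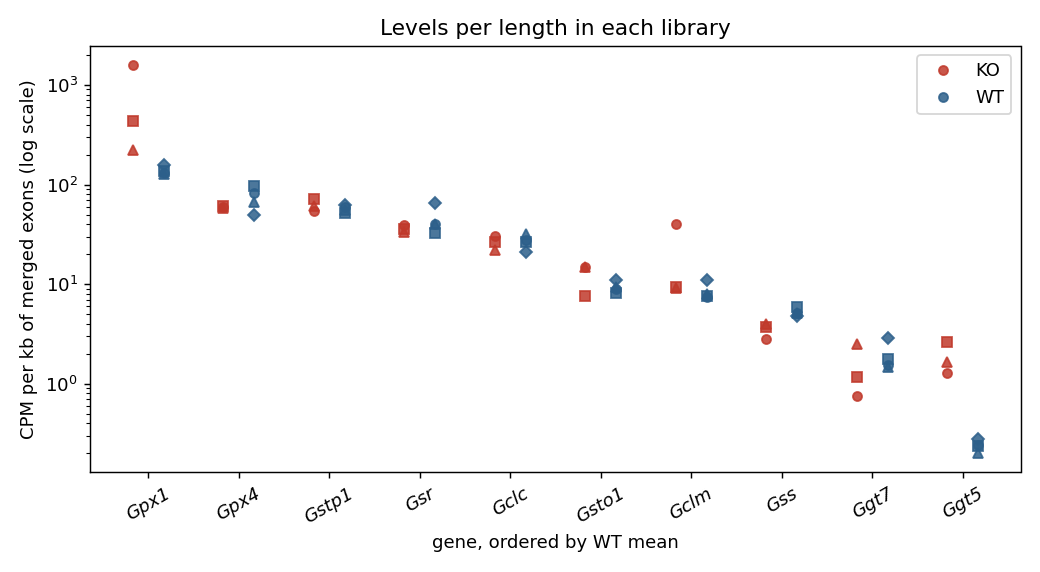
Level of each gene in CPM per kilobase of merged exons (y axis, log scale) in every library, KO left of WT, ordered by the WT mean. The levels run from 1573 CPM per kb for Gpx1 in KO replicate 1 down to 0.204 for Ggt5 in WT replicate 3. Ggt5 shows a clear gap between the groups. For Gpx1 the gap is narrower, from 156 CPM per kb in WT replicate 4 to 223 CPM per kb in KO replicate 3.

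Of 109 other genes listed for this metabolism, 88 were measured. After adjustment edgeR called 0 of them, as it called 0% of all genes; at an unadjusted p below 0.05 it counted 23 higher (all genes 11.0%) and 6 lower (7.89%). With DESeq2, 16 were higher (all genes 6.54%) and 1 was lower (3.29%). For 15 of the 88 each KO library exceeded each WT library (all genes 9.46%), and for 7 each was beneath (all genes 9.03%). The log2 differences of the 88 had a median of 0.15, and 52 were above 0. Without KO replicate 1 and WT replicate 4 together edgeR called 9 higher (all genes 5.43%) and 4 lower (4.20%), among them Hpgds, Mgst1 and Bach2 higher and Ggct lower. The same shares of all genes apply to the counts of each list.

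In the list of other glutathione transferases 11 of 16 measured genes had a log2 difference above 0 (median 0.74), 6 lay wholly above WT (all genes 9.46%) and 1 wholly below (9.03%); edgeR called 0 (7 higher and 1 lower at an unadjusted p below 0.05; all genes 11.0% higher and 7.89% lower), against 5 higher with DESeq2 (all genes 6.54%). Hpgds, the prostaglandin D synthase that needs glutathione, had 9.83, 5.24 and 6.58 CPM in KO replicates 1 to 3, against 1.17 to 2.11 CPM in WT (log2 2.24 ± 0.38, SE; edgeR adjusted p = 0.0651). Mgst1, a microsomal transferase, had 11.8, 0.559 and 4.32 CPM in KO replicates 1 to 3, against 0.0414 to 0.339 CPM in WT, on 3 to 20 reads in WT. KO replicates 1 and 3, which were high for Mgst1, also had the larger macrophage sums (633 and 1303 CPM, against 62.5 CPM in KO replicate 2). The shared order of Hpgds and Mgst1 in KO replicates 1 to 3 was that of the monocyte and neutrophil sum (1430, 126 and 372 CPM). It was also that of the CD4 T cell sum (231, 27.5 and 63.4 CPM). The part of these cells in the Hpgds and Mgst1 levels was not tested.

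In the list of leukotriene C4 synthesis and conjugate transport 6 of 8 genes were above 0 (median 0.44), 3 lay wholly above WT (all genes 9.46%) and 0 below (9.03%); edgeR called 0 (4 higher at an unadjusted p below 0.05; all genes 11.0% higher and 7.89% lower), against 4 higher with DESeq2 (all genes 6.54%). Alox5ap, the protein that presents arachidonate to 5-lipoxygenase, had 10.4, 1.44 and 0.537 CPM in KO replicates 1 to 3, against 0 to 0.292 CPM in WT. The B cell, red cell, stromal and endothelial, and cell cycle sums of the KO libraries all had this order, and their part was not tested. Slc25a39, the carrier that brings glutathione into mitochondria, was at 425, 125 and 101 CPM in KO and 70.0 to 79.9 CPM in WT, with the highest level in KO replicate 1, the library with the largest B cell and red cell sums (log2 1.51 ± 0.47, SE; edgeR adjusted p = 0.153). Without KO replicate 1 and WT replicate 4 together the difference was smaller and was called (log2 0.61 ± 0.13, SE; edgeR adjusted p = 0.0423).

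In the NRF2 list 9 of 13 genes were above 0 (median 0.73), 3 lay wholly above WT (all genes 9.46%) and 0 below (9.03%); edgeR called 0 (6 higher at an unadjusted p below 0.05; all genes 11.0% higher and 7.89% lower), against 5 higher with DESeq2 (all genes 6.54%). Bach2, a repressor that competes at the same motif and is known from naive T cells and B cells, had 131, 104 and 66.0 CPM in KO replicates 1 to 3, against 22.3 to 37.0 CPM in WT (log2 1.68 ± 0.26, SE; edgeR adjusted p = 0.0651). The KO libraries had the same order in the B cell sum (20120, 1501 and 1398 CPM) and the red cell sum (19570, 2782 and 95.9 CPM). They also had it in the stromal and endothelial sum and the cell cycle sum. The part of these in Bach2 was not tested. Of the Bach2 exons 5.4% overlap its antisense gene Bach2os. Hmox1, heme oxygenase, had 70.5, 8.38 and 125 CPM in KO replicates 1 to 3, against 5.48 to 10.8 CPM in WT. Hmox1 was high in KO replicates 1 and 3, the libraries with the larger macrophage sums, and in KO replicate 2 it lay within the WT range; the part of macrophages was not tested.

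Among peroxiredoxins, thioredoxins and other peroxidases 10 of 21 genes were above 0 and 11 below (median -0.08), with 1 wholly above WT and 4 wholly below; edgeR called 0 (1 higher and 3 lower at an unadjusted p below 0.05), against 1 higher with DESeq2. Prdx1, an abundant peroxiredoxin, was at 283, 238 and 295 CPM in KO and 385, 529, 301 and 604 CPM in WT (log2 -0.74 ± 0.25, SE; edgeR adjusted p = 0.1796). Txnrd3, a thioredoxin reductase, was at 6.57, 4.28 and 1.56 CPM in KO and 0.621 to 1.56 CPM in WT, so that its groups all but touched. In NADPH supply 6 of 9 genes were above 0 (median 0.07), with 1 wholly above WT and 1 wholly below; edgeR called 0 (2 higher and 1 lower at an unadjusted p below 0.05), against 1 lower with DESeq2. Me2, the mitochondrial malic enzyme, was at 204, 201 and 225 CPM in KO and 302, 281, 297 and 329 CPM in WT (log2 -0.53 ± 0.12, SE; edgeR adjusted p = 0.0832). Idh1, the cytosolic isocitrate dehydrogenase, was at 40.1, 14.1 and 24.5 CPM in KO and 11.7 to 16.4 CPM in WT.

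In selenoprotein synthesis, on which Gpx1 and Gpx4 depend, 3 of 10 genes were above 0 (median -0.09), with 1 wholly above WT and 1 wholly below; edgeR called 0 (2 higher and 1 lower at an unadjusted p below 0.05), against 1 higher with DESeq2. Sephs2, which makes the selenium donor, was at 64.7, 54.4 and 71.5 CPM in KO and 80.1 to 90.5 CPM in WT (log2 -0.43 ± 0.13, SE; edgeR adjusted p = 0.152). Selenop, a secreted selenoprotein, was at 118, 89.2 and 118 CPM in KO and 68.7, 69.2, 72.6 and 42.7 CPM in WT (log2 0.78 ± 0.21, SE; edgeR adjusted p = 0.122). In breakdown of glutathione 5 of 7 genes were above 0 (median 0.11), none lay wholly on one side, and edgeR (1 higher at an unadjusted p below 0.05) and DESeq2 called 0. Lap3, an aminopeptidase, was at 35.6, 30.1 and 47.7 CPM in KO and 20.5, 21.1, 21.0 and 33.5 CPM in WT. Ggct, which releases oxoproline from gamma-glutamyl residues, was at 25.4, 11.9 and 14.0 CPM in KO and 20.9 to 33.2 CPM in WT. In precursor supply 2 of 4 genes were above 0 (median -0.01), and edgeR (0 at an unadjusted p below 0.05) and DESeq2 called 0. Slc3a2, the heavy chain of the cystine transporter, was at 163, 187 and 234 CPM in KO and 161 to 203 CPM in WT. Of the Sephs2 exons 36.4% overlap Gm44729, and of the Selenop exons 15.4% overlap Ccdc152, both on the other strand.

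**Figure D5:**
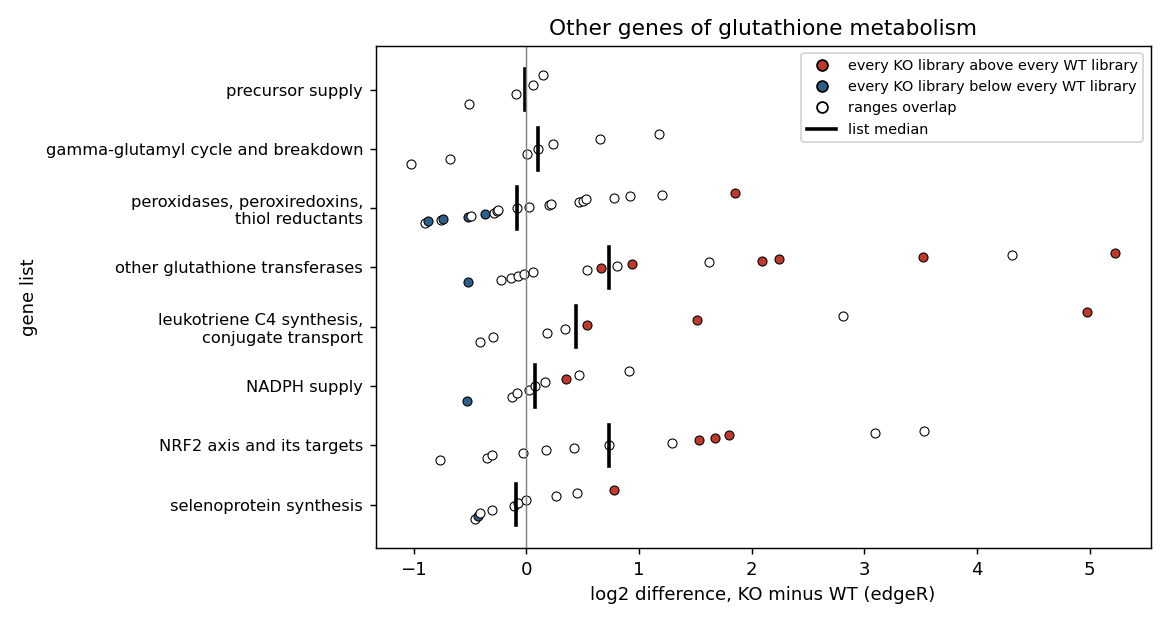
Log2 difference of KO minus WT (x axis) for the 88 other measured genes by list (rows), with filled points where the KO and WT libraries do not overlap and a bar at the median of each list. The transferase and NRF2 lists have medians of 0.74 and 0.73, and the selenoprotein list one of -0.09.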

How the data were processed

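Total RNA of 3 ACLY KO and 4 WT samples was sequenced. The submitters' processing notes name Trim Galore 0.6.0 (a read trimmer), STAR 2.7.8 (an aligner), DESeq2 and the mm10 build, with no settings. How reads were counted (tool, annotation, strand, low-count filter) is not stated in the labels. Raw counts of 16156 genes were deposited by the authors, with a table of log2 CPM. The authors' log2 values matched those computed here from the counts (edgeR, TMM scaling, prior count 2) within 4.99e-09 and supplied the gene symbols. Column names matched the sample descriptions.

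CPM values were computed from the counts with TMM scaling. KO and WT were compared with edgeR 4.0.16 in R 4.3.3 (quasi-likelihood fit, genotype as the only term, Benjamini-Hochberg adjustment over 16156 genes, threshold 0.05); filterByExpr removed 0 genes. SEs were derived from the same fit. Exons, coordinates and overlaps came from GENCODE M21 on mm10. A count of 3 equals 0.0397 to 0.0801 CPM before TMM scaling. Other settings tried were scaling by DESeq2 size factors or the upper quartile, testing unfiltered genes or those averaging 10 counts, DESeq2 1.42.0 itself, limma 3.58.1 (voom with quality weights), the bias-adjusted edgeR fit, the replicate number as a block, each library left out, and KO replicate 1 with WT replicate 4 left out.

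The 10 genes, the 8 gene lists and the marker lists were chosen with earlier results of these data known. The rule named the 10 genes, Acly, in each pathway list the 2 genes with the smallest unadjusted p, in each marker list the 2 most abundant genes, and the 5 genes nearest to Ggt5; a gene that the rule names is not reported here. Ggt1, Gstp3, Osgin1, the markers at 0, the CD8 T cell markers below WT and overlapping or sequence-sharing genes outside that rule were picked with values in view.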

Additional observations from a re-analysis of the deposited data

Results flagged for a closer look

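In each set of 4 WT values, 1 library was set against the other 3 by the gap to its neighbour over the whole range (Dixon's 95% critical value). Chance flags about 1 in 20 groups, and 9 of 43 sets tested stood out, 7 of them for WT replicate 4. In WT replicate 4, Gclm was at 69.9 CPM against 47.1 to 49.9 CPM in the other WT libraries, Ggt1 at 106 CPM against 8.50 to 11.9 CPM, Gstp3 at 41.8 CPM against 24.5 to 27.4 CPM, and Lap3 at 33.5 CPM against 20.5 to 21.1 CPM. Selenop was low there, at 42.7 CPM against 68.7 to 72.6 CPM. The cell cycle sum of WT replicate 4 was 2810 CPM against 340.4 to 357 CPM, and its dendritic cell sum 165 CPM against 383 to 412 CPM. In WT replicate 2, Adamtsl4 was at 1.44 CPM against 1.17 to 1.19 CPM, and the red cell sum was 181 CPM against 0.499 to 17.8 CPM.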

How the results depend on the processing

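Counts of called genes depended on the tool and the libraries. Over all genes edgeR called 0, against 1552 with DESeq2, 1132 with limma voom, 574 with the bias-adjusted edgeR fit, 1532 without KO replicate 1 and WT replicate 4 together, and 0 to 189 with 1 library left out. Without KO replicate 1, 2 or 3 the count was 159, 120 or 189, and without WT replicate 4 it was 129. Of the 88 pathway genes these settings called 17, 11, 5, 13 and 0 to 2, in the same order, with Hmox1 and Osgin1 called without KO replicate 2 and Bach2 without KO replicate 3. The log2 difference of Ggt5, whose value began the set, was 2.97, 2.96, 2.94 and 3.24 in the first 4 of these settings and 2.60 to 3.15 with 1 library left out. That of Gpx1 was 2.45 with DESeq2, 1.94 with limma voom, 1.34 without KO replicate 1 and WT replicate 4, and 1.26 to 2.87 with 1 library left out, and that of Gss was -0.56 with DESeq2. The sign of Gclc turned to 0.0033 with median-of-ratios scaling, 0.0366 with upper-quartile scaling and 0.0033 with DESeq2, and ran from -0.132 to 0.0882 with 1 library left out; that of Ggt7 turned to 0.23 without KO replicate 1 and WT replicate 4. The cause was not tested. The other 5 genes kept their sign in all 16 alternatives and were not called in any. Among these, testing unfiltered genes only repeated the main fit, because the filter had removed 0 genes. The labels do not say that replicate numbers pair libraries, and deviations of same-numbered libraries from their group means correlated at -0.11, -0.05 and 0.14; with the replicate block edgeR called 0 genes and the log2 difference of Gpx1 was 1.998 (edgeR adjusted p = 0.263). Depth limits Mgst1 and Alox5ap, which had 0 to 20 reads in WT.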
